A study of Arabidopsis thaliana with 15 samples.

Results

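The transcripts described here encode the outer ring of the nuclear pore of Arabidopsis thaliana, the NUP107-160 complex. Its 10 loci, of 33602 in the count tables, were chosen by name, though with earlier results of these data known. They are NUP160, NUP133, NUP107, NUP96, NUP85, NUP43, SEH1, SEC13A, SEC13B and HOS1. All 10 were counted in all 15 libraries and passed the filter on low counts in every fit. The lowest single count was 85, of NUP43 in wild type nuclei replicate 2.

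Plants were 2-week-old seedlings of wild type Col-0 and of the homozygous mutant eds4 -/-, for which the labels name neither allele nor ecotype, raised without treatment on Murashige and Skoog agarose at 22 °C under continuous white light of 50 μmol per square metre per second. For every library stratification lasted 4 days at 4 °C, and harvest is given as days 10 to 14. A profiling experiment held whole seedlings, 4 libraries of wild type and 3 of eds4, extracted with a column kit. A distribution experiment held total RNA of whole seedlings and RNA of nuclei purified by fluorescence-activated sorting, with 2 libraries for each genotype and fraction, extracted with phenol. The first asks how the transcriptome of the mutant differs, and the second how transcripts divide between the nucleus and the whole seedling. The labels number the replicates but do not say whether these were separate cultures, and p-values then reflect only how far these libraries spread, which may be technical. The nuclei came from an unstated mix of cells, and in such bulk samples fewer cells of a type and less RNA per cell cannot be told apart.

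The outer ring, also called the Y complex, coats both faces of the pore membrane and anchors the inner ring, the channel proteins and the peripheral filaments. Its stem is built by NUP107, which in yeast and human binds NUP133, and by NUP96, which pairs with SEC13; NUP85 with SEH1 and NUP160 form the arms. In plants the complex takes part in export of messenger RNA, immune signalling, auxin response and flowering time. HOS1, a RING-type ubiquitin ligase first found in cold signalling, is bound to the outer ring in plants. EDS4 (AT5G51200), the locus of the mutant, encodes the inner ring scaffold NUP205, so the mutant lesion lies in a neighbouring part of the same pore.

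SEC13 is the only outer ring protein present here as a pair of gene copies, and it also forms the outer cage of COPII coats on vesicles that leave the endoplasmic reticulum. The coding sequences of SEC13A and SEC13B were compared because reads that match both copies equally could be counted for either. Each was 909 bases long in the RefSeq annotation of TAIR10.1, with 764 bases identical (84.0%), 145 differing and no gap. The longest stretch without a difference was 32 bases. The 100-base window in which the copies were most alike, coding bases 622 to 721, is shown first with the 7 differing bases in capitals. It lies at chr3:127745-127844 on the minus strand for SEC13A and at chr2:12826161-12826260 on the plus strand for SEC13B.
SEC13A: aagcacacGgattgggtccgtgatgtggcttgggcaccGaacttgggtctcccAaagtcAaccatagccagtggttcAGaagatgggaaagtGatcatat
SEC13B: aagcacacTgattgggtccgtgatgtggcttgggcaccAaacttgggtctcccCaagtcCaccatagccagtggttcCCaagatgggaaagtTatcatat
The window in which they were least alike, coding bases 462 to 561, held 23 differences, again in capitals. It lies at chr3:127905-128004 on the minus strand for SEC13A and at chr2:12826001-12826100 on the plus strand for SEC13B.
SEC13A: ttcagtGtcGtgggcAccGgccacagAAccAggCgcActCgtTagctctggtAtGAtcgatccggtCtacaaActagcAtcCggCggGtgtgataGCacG
SEC13B: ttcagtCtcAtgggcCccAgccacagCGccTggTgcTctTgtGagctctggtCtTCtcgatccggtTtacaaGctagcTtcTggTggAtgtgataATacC
Even in the most alike window a read spanning the 100 bases meets 7 differing positions. In a search of each member's coding sequence against all others in the annotation, SEC13A and SEC13B hit each other, and the other 8 members had 0 hits. How the authors' counting treated a read with several matches is not given in the sources used here, so the split between the SEC13 copies carries that uncertainty.

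The members differed widely in gene structure. NUP160 (AT1G33410, chromosome 1, 12109590 to 12118850, TAIR10) was the longest locus at 9261 bases, with 26 exons. NUP107 (AT3G14120, chromosome 3, 4677813 to 4685666) had 24 exons and NUP85 (AT4G32910, chromosome 4, 15881256 to 15885416) had 18. NUP133 (AT2G05120, chromosome 2, 1841887 to 1846912) had 8, HOS1 (AT2G39810, chromosome 2, 16612800 to 16618057) had 10, and NUP96 (AT1G80680, chromosome 1, 30324008 to 30328769) had 6. The small WD-repeat proteins came from compact genes: SEH1 (AT1G64350, chromosome 1, 23881512 to 23883297) with 7 exons, NUP43 (AT4G30840, chromosome 4, 15017615 to 15019735) with 5, and SEC13A (AT3G01340, chromosome 3, 127348 to 128994) and SEC13B (AT2G30050, chromosome 2, 12824451 to 12826684) with 2 each. SEC13A was the shortest locus at 1647 bases. Exon numbers are those of the RefSeq annotation, and 0 of the 10 members had an overlapping locus listed in the files.

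Library totals were 37277300 to 51059295 counts in the profiling experiment and 12393243 to 31745372 in the distribution experiment. Levels are given in CPM, a count relative to its library's size, with sizes corrected by TMM, a trimmed mean of log ratios, within each experiment. Ribosomal RNA loci took 2.79 and 11.2% of counts in the libraries of wild type nuclei and at most 1.59% elsewhere. The transcript of EDS4 stood at 73.4 ± 8.43 CPM (SD, n = 4) in wild type seedlings and 35.3 ± 5.95 CPM (n = 3) in eds4 seedlings. It fell by 1.05 on the log2 scale (SE 0.132, adjusted p = 0.0101 by edgeR's quasi-likelihood F test, with the Benjamini-Hochberg adjustment used throughout), with adjusted p = 0.0713 without eds4 replicate 1 and 0.0679 without eds4 replicate 2. In total RNA the means were 88.4 CPM in wild type and 35.2 CPM in eds4, and the groups did not overlap, as in 37.9% of all loci. The log2 difference there was -1.33, which did not pass with edgeR and passed in 2 of 14 alternatives. In nuclei EDS4 read 48.5 and 65.6 CPM in wild type and 59.5 and 62.5 CPM in eds4, so there it gave no check of the labels. Leaf, root, dividing cell and vascular markers, 4 genes each, all had counts in every seedling and total RNA library.

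Per kilobase of exon, the SEC13 copies were the most abundant outer ring transcripts of wild type seedlings and NUP133 the least. SEC13A averaged 42.9 ± 4.20 CPM per kb and SEC13B 31.3 ± 2.03 CPM per kb (SD, n = 4), and their ranges did not overlap. The other members, NUP133 aside, followed in a narrow band: SEH1 at 13.6 ± 0.779, NUP85 at 12.5 ± 0.454, NUP96 at 12.0 ± 0.885, HOS1 at 10.7 ± 0.797, NUP160 at 10.1 ± 1.05, NUP107 at 8.74 ± 0.413 and NUP43 at 7.47 ± 0.997 CPM per kb. Each neighbouring pair in that run overlapped in range, from SEH1 down to NUP43. NUP133, the tip of the Y, stood apart at 4.08 ± 0.569 CPM per kb. SEC13 protein serves both the pore and COPII, and these levels do not separate those uses.

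The order was much the same in eds4 seedlings, led by SEC13A at 45.3 ± 3.05 CPM per kb and SEC13B at 34.5 ± 3.16 CPM per kb (n = 3), with NUP133 last at 3.68 ± 0.209 CPM per kb. In total RNA of the distribution experiment NUP85 ranked next after the SEC13 pair, at 21.7 ± 1.64 CPM per kb in the wild type and 16.3 ± 3.69 in eds4 (n = 2 each). In nuclei the ranking differed more. HOS1 stood at 17.9 ± 0.403 CPM per kb in wild type nuclei, level with SEC13A at 18.7 ± 4.18 and SEC13B at 18.1 ± 1.70 CPM per kb, whose ranges overlapped. NUP96 was next to last there at 2.94 ± 0.420 CPM per kb, in a range that overlapped that of NUP133 at 2.60 ± 0.913 CPM per kb. In eds4 nuclei NUP96 stood at 2.90 ± 0.141 and NUP133 at 1.80 ± 0.120 CPM per kb, without overlap. Taking all 10 members together, they summed to 301 to 351 CPM in seedlings, 293 to 323 CPM in total RNA and 231 to 248 CPM in nuclei.

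**Figure D1:**
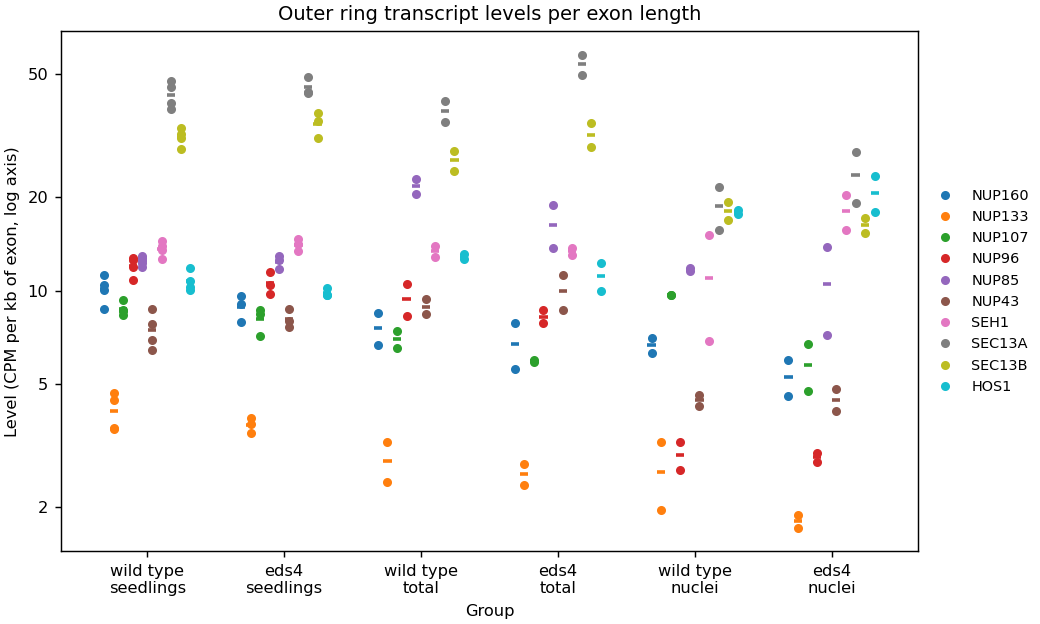
Level of each outer ring transcript in CPM per kb of exon (log axis) in the 6 groups; points are libraries and dashes are group means. SEC13A and SEC13B lie highest in seedlings and total RNA, NUP133 has the lowest mean in all 6 groups, and NUP96 drops to between 2.65 and 3.24 CPM per kb in wild type nuclei.

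In eds4 seedlings of the profiling experiment no outer ring transcript passed the test, and the ranges of the genotypes overlapped for each. Of the 10 members 0 reached an edgeR adjusted p under 0.05, where 1.34% of 22202 loci did (297 loci). At an unadjusted p under 0.05 the count was also 0 of 10, against 16.0% of all loci, and DESeq2 called 0 as well. In 10 of 10 members the ranges of wild type and eds4 overlapped, while 15.6% of all loci had groups that did not. The median log2 change of the members was -0.06, and that of all loci 8.59e-05. Taken gene by gene, the 95% limits of the 10 members reached from a fold of 0.745 (NUP160) to 1.31 (NUP43). These intervals reflect the spread of these libraries and do not cover the 10 genes jointly.

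The long scaffold genes lay on the low side. NUP96 read 45.7, 43.3, 46.4 and 39.3 CPM in wild type replicates 1 to 4, and 35.4, 37.9 and 41.7 CPM in eds4 replicates 1 to 3. Wild type replicate 4 lay within the eds4 range, and the log2 change was -0.19 (SE 0.0866, edgeR adjusted p = 0.331). NUP160, which in Arabidopsis was also found as SUPPRESSOR OF AUXIN RESISTANCE and shares that role with NUP96, read 49.4, 47.7, 53.3 and 41.4 CPM in wild type and 37.6, 43.1 and 45.4 CPM in eds4. Wild type replicate 4 was again the lowest of its group, and the log2 change was -0.19 (SE 0.103, edgeR adjusted p = 0.41). NUP107 averaged 32.9 ± 1.55 CPM in wild type and 30.3 ± 3.02 CPM in eds4, NUP133 16.7 ± 2.33 and 15.1 ± 0.855 CPM, and NUP85 30.7 ± 1.12 and 30.5 ± 1.51 CPM. Their log2 changes were -0.12 for NUP107, -0.15 for NUP133 and -0.01 for NUP85, with edgeR adjusted p of 0.542, 0.583 and 0.964.

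The WD-repeat members had eds4 means above those of the wild type, with ranges that overlapped. NUP43, which is found in animals and plants but not in yeast, averaged 9.92 ± 1.32 CPM in wild type and 10.8 ± 0.715 CPM in eds4 (log2 change 0.12, SE 0.119). SEH1, the partner of NUP85, averaged 17.4 ± 0.993 and 17.9 ± 0.759 CPM (log2 change 0.04, SE 0.0772). SEC13A averaged 53.6 ± 5.25 and 56.7 ± 3.81 CPM (0.08, SE 0.0921), and SEC13B 40.1 ± 2.60 and 44.2 ± 4.04 CPM (0.14, SE 0.0855). The edgeR adjusted p was 0.668 for NUP43, 0.825 for SEH1, 0.71 for SEC13A and 0.466 for SEC13B. HOS1 averaged 34.1 ± 2.53 CPM in wild type and 31.3 ± 0.949 CPM in eds4 (log2 change -0.12, SE 0.0753, edgeR adjusted p = 0.464).

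**Figure D2:**
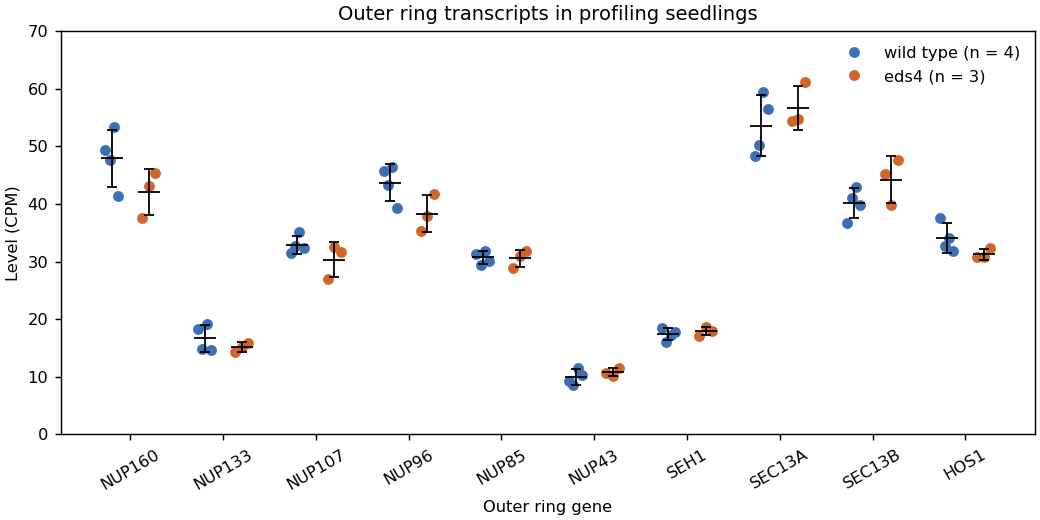
Level in CPM of each outer ring transcript in the profiling seedlings; points are libraries (4 wild type, 3 eds4), horizontal bars are means and vertical bars are 1 SD. The wild type and eds4 libraries overlap for each of the 10 genes.

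The profiling libraries also separated by replicate number: a principal component holding 41.5% of the variance, the first, put replicates 3 and 4 apart from replicates 1 and 2. With a term for these sets 0 of 10 members passed, and within replicates 1 and 2 alone, a fit chosen after seeing the data, 0 of 10 passed. In that fit NUP96 had a log2 change of -0.29 (edgeR adjusted p = 0.109) and NUP160 of -0.27 (edgeR adjusted p = 0.149), and the values of the other 8 lay between -0.20 and 0.22. Of replicates 3 and 4, eds4 has 1 library, so no separate fit was made there.

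Across the 10 members the genotype change was lower in longer genes. Pearson's r between the log2 change and the log2 of locus length was -0.877 over the 10 genes in seedlings, -0.764 in total RNA and -0.716 in nuclei. Over all loci tested it was -0.156, -0.155 and -0.06. These are descriptions across genes measured in the same libraries, which are not independent replicates, and the small genes here are also the WD-repeat genes. The 6 members of 4000 bases or more had a median log2 change of -0.14 in seedlings, -0.20 in total RNA and -0.24 in nuclei, against -0.12, -0.19 and -0.05 for all loci of that length. The 4 shorter ones had medians of 0.10, 0.22 and 0.17, against 0.02, 0.02 and 0.0023 for all shorter loci.

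In total RNA of the distribution experiment 0 of 10 members passed, and edgeR called only 1 of 21484 loci (0.00465%). At an unadjusted p under 0.05 the count was 0 of 10 members, against 2.82% of all loci, and DESeq2 called 0 members. NUP107, NUP85 and HOS1 were lower and SEC13A and SEC13B higher in both eds4 libraries than in both of the wild type. That is 5 of 10 members, where 37.9% of all loci had groups that did not overlap. SEC13A read 43.8 and 50.9 CPM in wild type and 72.0 and 62.2 CPM in eds4. Its log2 difference was 0.50 (SE 0.269, edgeR adjusted p = 1), with a fold between 0.935 and 2.15 at 95%. NUP85 read 50.5 and 56.2 CPM in wild type and 46.6 and 33.7 CPM in eds4. Its log2 difference was -0.41 (SE 0.314, edgeR adjusted p = 1), and eds4 replicate 2 was the lowest of the 4.

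The genotype effect was then compared between both whole-seedling experiments in a fit of 11 libraries, where 0 of 10 members passed and 2 of 22525 loci did (0.00888%). At an unadjusted p under 0.05, SEC13A was the 1 member to pass, against 9.39% of all loci. Its effect in profiling seedlings minus that in total RNA was -0.45 (SE 0.183, edgeR unadjusted p = 0.0323, adjusted p = 0.479). Averaged over both experiments, SEC13A stood 0.30 higher in eds4 on the log2 scale (SE 0.0913, edgeR adjusted p = 0.105) and SEC13B 0.21 higher (SE 0.0892, edgeR adjusted p = 0.203), neither past the threshold. The experiments also differed in cell type markers, in CPM scaled within each. Leaf markers summed to 16992 to 26001 CPM in profiling seedlings and 51404 to 60178 CPM in total RNA, and root markers to 2171 to 2896 and 394 to 631 CPM. Vascular markers summed to 276 to 353 and 146 to 198 CPM, and those of dividing cells to 77.1 to 110 and 120 to 156 CPM. The part of this in the comparison was not tested. The share of the SEC13 pair's counts that fell to SEC13A lay between 55.0 and 58.6% in wild type seedlings and between 54.6 and 57.9% in eds4 seedlings. The log2 ratio of SEC13A to SEC13B per kb was 0.40 in eds4 and 0.45 in wild type seedlings, a difference of -0.05 (exact two-sided permutation test over 35 arrangements, p = 0.429, where the smallest p possible is 0.0286).

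In nuclei, too, 0 of 10 members differed between eds4 and wild type past the threshold, where 0.363% of 21484 loci did (78 loci), and DESeq2 called 0 members. NUP107, the stem protein, came nearest and was the 1 member with an unadjusted p under 0.05, against 14.1% of all loci. It read 36.3 and 36.5 CPM in wild type nuclei and 25.3 and 17.9 CPM in eds4 nuclei. The wild type libraries were almost level and both eds4 libraries lay below them, with a log2 difference of -0.75 (SE 0.254, edgeR unadjusted p = 0.0145, adjusted p = 0.231). NUP160 and NUP133 were also lower in both eds4 libraries, by log2 differences of -0.34 and -0.53 (edgeR adjusted p = 0.624 and 0.557). SEH1 was higher in both, at 19.9 and 26.0 CPM against 8.75 and 19.3 CPM in the wild type, whose libraries lay far apart (log2 difference 0.71, SE 0.367, edgeR adjusted p = 0.417). These 4 members stand against 38.4% of all loci with groups that did not overlap.

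**Figure D3:**
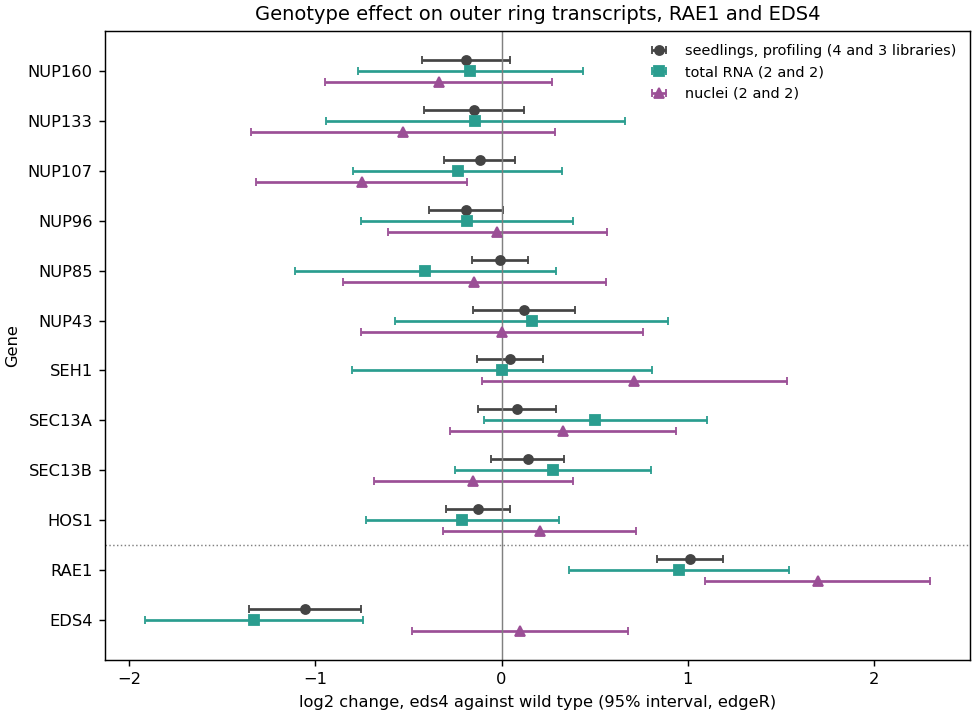
Log2 change in eds4 against wild type, with 95% intervals from edgeR, for the 10 outer ring genes, for RAE1 and for EDS4, in seedlings (circles), total RNA (squares) and nuclei (triangles). Intervals of the outer ring genes include 0 in seedlings and total RNA and exclude it only for NUP107 in nuclei, while RAE1 lies above 0 in all 3 sources.

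Some outer ring transcripts were called lower in nuclei than in total RNA, but only NUP96 kept its call in every alternative run. In the wild type 3 of 10 members were lower in nuclei (NUP96, SEC13A and NUP43) and 0 higher, where 30.6% of 21484 loci passed, 15.6% lower and 15.1% higher. In eds4 4 were lower (NUP96, SEC13A, NUP43 and SEC13B) and HOS1 was higher, against 29.6% of all loci, 14.0% lower and 15.6% higher. The median log2 ratio of the members was -0.41 in the wild type and -0.57 in eds4, and that of all loci -0.00338 and 0.09. TMM sets the typical locus near no change, so each ratio is relative to that locus. At an unadjusted p under 0.05, 5 members passed in each genotype, against 42.2% of all loci in the wild type and 40.9% in eds4.

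NUP96, which pairs with SEC13 in the stem of the Y, had the lowest ratio of the 10 in both genotypes. It read 38.1 and 30.1 CPM in wild type total RNA and 9.62 and 11.8 CPM in wild type nuclei, 28.6 and 31.4 CPM in eds4 total RNA and 10.2 and 10.9 CPM in eds4 nuclei. All 4 libraries of nuclei lay far below all 4 of total RNA. The log2 ratio was -1.67 in the wild type (SE 0.266, edgeR adjusted p = 0.00156) and -1.51 in eds4 (SE 0.265, edgeR adjusted p = 0.00242), so nuclei held 0.314 and 0.351 of the level in total RNA. It passed in all 14 alternatives run in each genotype, with ratios between -1.85 and -1.51 in the wild type and between -1.59 and -1.46 in eds4.

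Both SEC13 copies were lower in nuclei, SEC13B past the threshold in eds4 alone; whether the copies differ in this was not tested. SEC13A fell from 43.8 and 50.9 CPM in total RNA to 19.7 and 27.1 CPM in nuclei of the wild type, and from 72.0 and 62.2 to 23.9 and 34.9 CPM in eds4. Total RNA and nuclei did not overlap in either genotype. The log2 ratio of SEC13A was -1.02 (SE 0.273, edgeR adjusted p = 0.0188) in the wild type and -1.19 (SE 0.273, edgeR adjusted p = 0.0091) in eds4. SEC13B read 31.2 and 36.1 CPM in total RNA and 21.6 and 24.7 CPM in nuclei of the wild type, and 44.4 and 37.1 against 19.7 and 22.0 CPM in eds4. Its log2 ratio was -0.54 (SE 0.238, edgeR adjusted p = 0.112) in the wild type and -0.97 (SE 0.24, edgeR adjusted p = 0.0132) in eds4. In the wild type the SEC13A call was lost without either library of total RNA (adjusted p = 0.0515 without replicate 1 and 0.106 without replicate 2) or without nuclei replicate 1 (0.101). In eds4 both SEC13 calls were lost without total RNA replicate 1 (edgeR adjusted p = 0.0556 for SEC13A and 0.104 for SEC13B) and without nuclei replicate 1 (0.0516 and 0.0563).

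The least abundant of the WD-repeat transcripts, NUP43, followed the same direction. It read 11.2 and 12.4 CPM in total RNA and 6.14 and 5.62 CPM in nuclei of the wild type, and 11.5 and 14.9 against 5.42 and 6.37 CPM in eds4. The log2 ratio was -1.0 (SE 0.336, edgeR adjusted p = 0.0465) in the wild type and -1.16 (SE 0.337, edgeR adjusted p = 0.0268) in eds4. The wild type value lay close to the threshold: NUP43 passed there in 5 of 14 alternatives, and in eds4 in 9 of 14. Leaving out any library but those of eds4 nuclei ended the wild type call (edgeR adjusted p up to 0.229), and leaving out any library of total RNA, or eds4 nuclei replicate 1, ended the eds4 call (up to 0.189). NUP85, at 50.5 and 56.2 CPM in total RNA and 28.5 and 29.1 CPM in nuclei of the wild type, had a ratio of -0.89 and missed the threshold (SE 0.317, edgeR adjusted p = 0.0575), though it passed in 6 of 14 alternatives. In eds4 nuclei it read 34.1 and 17.8 CPM, and replicate 1 lay within the range of eds4 total RNA (log2 ratio -0.63, edgeR adjusted p = 0.166).

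HOS1 lay on the other side. It read 40.2 and 41.7 CPM in total RNA and 57.8 and 56.0 CPM in nuclei of the wild type, and 31.8 and 39.0 against 57.0 and 74.3 CPM in eds4. Nuclei were above total RNA in both genotypes, with a log2 ratio of 0.48 (SE 0.233, edgeR adjusted p = 0.149) in the wild type and 0.89 (SE 0.234, edgeR adjusted p = 0.0174) in eds4. The eds4 call was lost without either library of total RNA (edgeR adjusted p = 0.15 and 0.0541 without replicates 1 and 2) without nuclei replicate 2 (0.0993), and in a fit of the 4 libraries of the comparison alone (0.0616). It passed in 10 of 14 alternatives. For NUP107 the wild type ratio was 0.47 (edgeR adjusted p = 0.183), with both libraries of nuclei above both of total RNA, and the eds4 ratio was -0.04 (edgeR adjusted p = 0.921). The remaining scaffold genes did not pass in either genotype: NUP160 had ratios of -0.18 and -0.35 and NUP133 of -0.12 and -0.51 in the wild type and eds4. SEH1 had ratios of -0.29 and 0.43, neither past the threshold. Of the 10 members 7 in the wild type and 7 in eds4 had groups of nuclei and total RNA that did not overlap, NUP96, SEC13A, SEC13B, NUP43 and HOS1 in both; among all loci 68.5 and 65.5% had groups that did not overlap.

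**Figure D4:**
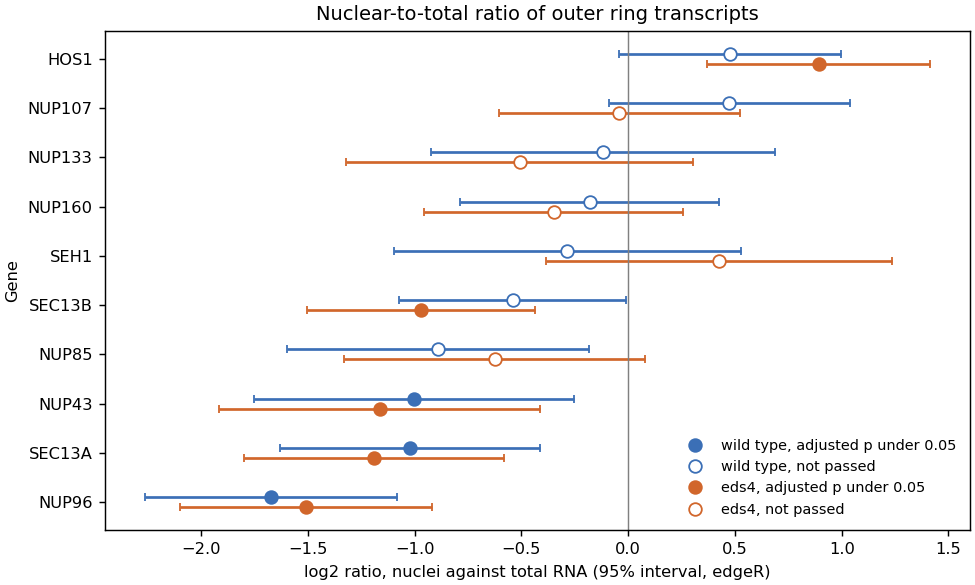
Log2 ratio of nuclei against total RNA for each outer ring gene, with 95% intervals from edgeR, in the wild type (blue) and eds4 (orange); filled points passed an adjusted p of 0.05. NUP96, SEC13A and NUP43 lie below 0 in both genotypes, with NUP96 lowest at -1.67 and -1.51, and HOS1 lies above 0, filled in eds4.

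The ratio did not differ between genotypes past the threshold for any of the 10 members. The interaction test called 0 of 21484 loci (0%), and at an unadjusted p under 0.05 it held 0 members, against 5.83% of all loci; DESeq2 called 0 members. The differences ran from -0.52 for NUP107 (SE 0.357, edgeR adjusted p = 0.899) to 0.71 for SEH1 (SE 0.515, edgeR adjusted p = 0.909). The intervals were wide. For NUP96 the difference was 0.16 with 95% limits of -0.66 and 0.98, for HOS1 0.42 with limits of -0.32 and 1.15, and for SEC13B -0.43 with limits of -1.18 and 0.32. The calls of HOS1 and SEC13B in eds4 alone are therefore not shown to set eds4 apart.

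Markers of cell types moved with the fractions. The 4 leaf markers summed to 51404 to 60178 CPM in total RNA and 6208 to 12636 CPM in nuclei over both genotypes, and the 4 vascular markers to 146 to 198 and 61.8 to 71.1 CPM. Those of dividing cells summed to 120 to 156 CPM in total RNA and 249 to 365 CPM in nuclei, yet gene by gene 2 of 4 were lower and 1 higher in each genotype, with median log2 ratios of -0.64 in the wild type and -0.71 in eds4. The higher gene was CDC20-1 (2.02 and 2.07), and KNOLLE and CDKB2-2 were the lower ones. Root markers summed to 394 to 631 CPM in total RNA and 220 to 283 CPM in nuclei, with EXP7 at 0 in a library of wild type nuclei and COBL9 at 0 in one of eds4 nuclei. In the wild type CASP1 passed as higher (2.75) and PYK10 as lower (-1.17), with a list median of 1.44, and in eds4 PYK10 alone passed, as lower (-1.07), with a list median of -0.54. The calls of KNOLLE, CDKB2-2, CASP1 and PYK10 were each lost without some single library. Tested gene by gene between the genotypes, 0 markers of the 4 lists passed in nuclei, where 0.363% of all loci did, or in the interaction. All 4 root markers were lower in eds4 nuclei (median log2 difference -1.67), EXP7 and COBL9 with the zeros above. Medians there were -0.36 for leaf, 0.24 for dividing cell and 0.04 for vascular markers. No list was tested as a whole. The part of the marker shifts in the ratios of the outer ring was not tested. Locus length also moved with the ratio among all loci: those of 4000 bases or more had a median of 0.27 in the wild type and 0.45 in eds4, and shorter ones -0.05 and 0.01. The 6 outer ring genes of 4000 bases or more had medians of -0.15 and -0.43, and the 4 shorter ones -0.77 and -1.07.

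NUP96 has a neighbour of the same pore. RAE1 (AT1G80670), an mRNA export factor that binds NUP98, lies on the minus strand of chromosome 1 at 30320576 to 30323780, and NUP96 starts 227 bases further on the plus strand, so the genes diverge. In the RefSeq annotation the first bases of both transcripts overlap by 21 bases, and 675 bases separate the coding starts. The libraries do not record strand, but the loci in the count files do not overlap. The pair was looked at because RAE1 was known to rise in these data.

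RAE1 read 21.8, 23.0, 23.6 and 23.8 CPM in wild type seedlings and 51.4, 43.0 and 45.2 CPM in eds4 seedlings. Its log2 change was 1.01 (SE 0.0781, edgeR adjusted p = 0.00182), past the threshold in all 14 alternatives, while NUP96 in the same libraries stood at -0.19. In nuclei RAE1 rose from 21.4 and 17.0 CPM in the wild type to 52.2 and 72.6 CPM in eds4 (log2 change 1.70, SE 0.271, edgeR adjusted p = 0.042), a call that held in 5 of 14 alternatives and was lost, for example, without wild type nuclei replicate 2 (adjusted p = 0.137). NUP96 differed there by -0.02 (SE 0.264). In total RNA RAE1 read 24.1 and 26.3 CPM in wild type and 42.1 and 55.5 CPM in eds4, with a log2 difference of 0.95 (SE 0.265, edgeR adjusted p = 1). Per kb of exon, RAE1 stood at 1.21 to 1.53 times NUP96 in wild type seedlings and 2.73 to 3.67 times in eds4 seedlings. In nuclei the ratio was 5.62 and 3.64 in the wild type and 13.0 and 16.8 in eds4. RAE1 itself did not pass in nuclei against total RNA, at -0.39 in the wild type and 0.35 in eds4, against -1.67 and -1.51 for NUP96.

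**Figure D5:**
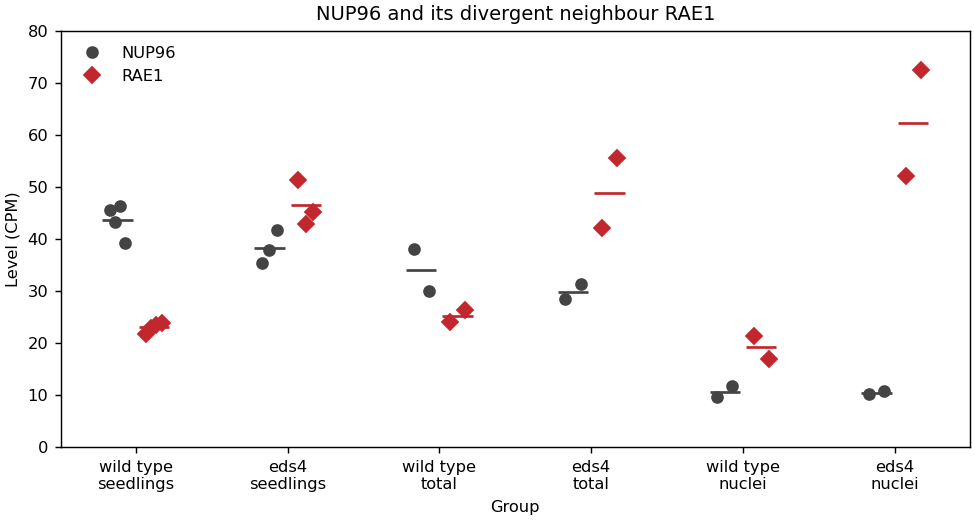
Level in CPM of NUP96 (circles) and its divergent neighbour RAE1 (diamonds) in the 6 groups; points are libraries and bars are group means. RAE1 lies higher in eds4 than in wild type in each source, while NUP96 lies between 9.62 and 11.8 CPM in all 4 libraries of nuclei and at 28.6 CPM or more in the others.

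The rest of the pore gave a comparison for the outer ring. Of 24 other nucleoporins 3 rose and 1 fell in eds4 seedlings, and 20 did not pass (median log2 change -0.01), where 1.34% of all loci passed. NUP98B, a channel protein with FG repeats, rose from 8.48 ± 1.19 to 29.3 ± 2.29 CPM (log2 change 1.79, SE 0.118, edgeR adjusted p = 0.000779), RAE1 rose as above and CG1 rose by 0.40 (SE 0.0739, edgeR adjusted p = 0.0446). The gene that fell was EDS4. The CG1 call held in 4 of 14 alternatives, and its lowest value was 0.18 (edgeR adjusted p = 0.47), the average effect over the 11 whole-seedling libraries. In nuclei NUP98B and RAE1 rose and 22 of 24 did not pass, where 0.363% of all loci passed. For NUP98B the log2 change was 2.07 (SE 0.316, edgeR adjusted p = 0.04), a call that held in 9 of 14 alternatives (adjusted p = 0.127 without wild type nuclei replicate 2). The difference between the lists was not tested.

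In nuclei against total RNA of the wild type 5 of 24 other nucleoporins were lower and 5 higher (median -0.29), where 15.6% of all loci were lower and 15.1% higher. In eds4 4 were lower and 6 higher (median 0.05), where 14.0% of all loci were lower and 15.6% higher. Lower in wild type nuclei were NUP155 of the inner ring (log2 ratio -1.33, edgeR adjusted p = 0.00614), NUP93A (-1.09, adjusted p = 0.00795) and NUP35 (-1.65, adjusted p = 0.00846). The mRNA export factor GLE1 of the cytoplasmic face was higher (1.26, edgeR adjusted p = 0.00701). In eds4 the 4 smallest p-values belonged to GLE1 (1.35, edgeR adjusted p = 0.0049), NUP50A (-1.50, adjusted p = 0.00504), CG1 (1.67, adjusted p = 0.0066) and the basket protein NUA (1.21, adjusted p = 0.00764). In the wild type the call of GLE1 was lost without total RNA replicate 2 (edgeR adjusted p = 0.0809) and that of NUP93A without total RNA replicate 1 (0.0526). Without eds4 total RNA replicate 1 the eds4 calls of GLE1, CG1 and NUA were lost (edgeR adjusted p = 0.0503, 0.0568 and 0.0654). The log2 ratio of NUP96 stood at -1.67 in the wild type and -1.51 in eds4, beside -1.65 and -1.67 for NUP35.

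COPII genes, the other partners of SEC13, did not pass in eds4 seedlings (0 of 19, median log2 change -0.14), in total RNA or in eds4 nuclei (0 of 18 tested in each). At an unadjusted p under 0.05, 4 of 19 passed in seedlings, against 16.0% of all loci. In nuclei against total RNA 5 of 18 were lower and 4 higher in the wild type, and 4 lower and 3 higher in eds4. Among all loci 15.6% were lower and 15.1% higher in the wild type, and 14.0 and 15.6% in eds4. SAR1-4, a small GTPase that starts coat assembly, was lower in both (-1.54, edgeR adjusted p = 0.0011, and -1.25, adjusted p = 0.00273). SEC23-2 of the inner coat was higher in both (1.69, edgeR adjusted p = 0.00453, and 1.76, adjusted p = 0.00366), as was the scaffold SEC16A in eds4 (1.48, edgeR adjusted p = 0.00212). The SEC23 genes did not share a direction. In wild type nuclei SEC23-6 (-1.18) and SEC24A (-0.999) were called lower, though each call was lost without some single library. SAR1-2 was lower in eds4 nuclei (-1.19), a call that held in 14 of 14 alternatives.

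Genes that HOS1 is known to act on or with were followed as another list of 10. In eds4 seedlings PIF4, a growth-promoting bHLH factor whose activity HOS1 limits, fell from 65.9 ± 7.98 to 36.2 ± 2.78 CPM (log2 change -0.87, SE 0.108, edgeR adjusted p = 0.00999), and 9 of 10 did not pass. Of all loci 1.34% passed there. PIF4 had an edgeR adjusted p of 0.0713 without eds4 replicate 1 and of 0.0703 without replicate 2. In total RNA and in nuclei 0 of 8 tested differed between the genotypes. In wild type nuclei 4 of 8 were lower than in total RNA and 0 higher: the cold-induced COR15A (-2.39, edgeR adjusted p = 0.00427) and RD29A (-1.14, adjusted p = 0.0324), the floral repressor FLC (-2.02, adjusted p = 0.00644) and its regulator FVE (-0.89, adjusted p = 0.0202). In eds4 COR15A (-2.69, edgeR adjusted p = 0.00252) and FLC (-1.73, adjusted p = 0.015) were lower and PIF4 higher (1.69, adjusted p = 0.0382). Among all loci 15.6% were lower and 15.1% higher in wild type nuclei, and 14.0 and 15.6% in eds4 nuclei. COR15A passed in 14 of 14 alternatives in both genotypes. Leaving out single libraries of the comparison ended the other calls: in the wild type that of FLC without total RNA replicate 2 (edgeR adjusted p = 0.051), that of FVE without total RNA replicate 1 or nuclei replicate 2 (up to 0.161) and that of RD29A without either library of total RNA or nuclei replicate 2 (up to 0.178). In eds4 those of FLC and PIF4 were lost without either library of total RNA or nuclei replicate 1 (edgeR adjusted p up to 0.0628 for FLC and 0.2 for PIF4).

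Over the 6 groups HOS1 and NUP96 lay farthest from the mean profile of the members. With all 15 libraries scaled together, their root mean square distances from it were 0.646 and 0.590 on the log2 scale. The other members lay between 0.174 (NUP160) and 0.359 (NUP107). The mean profile itself stood at 0.09 and 0.06 in wild type and eds4 seedlings, 0.25 and 0.20 in total RNA, and -0.26 and -0.34 in nuclei. Among 20914 loci outside the list, the nearest to that mean were ALDH10A9 (AT3G48170), annotated as an aldehyde dehydrogenase, at a distance of 0.0404, AT5G46150 at 0.0454 and AT2G37990 at 0.0461. The median distance of those loci was 0.570 and the lowest 1% lay under 0.117. Likeness to a mean over 6 groups is a description with no test.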

How the data were processed

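Polyadenylated RNA was sequenced from 15 libraries; per the labels' protocols these were TruSeq libraries primed with random hexamers, amplified over 12 cycles and sequenced as read pairs. The authors deposited raw read counts per locus, in whole numbers that were not normalised, with locus coordinates on TAIR10. The submitters' processing notes name TopHat2 2.1.1, SAMtools 1.3 and TAIR10; the counting program, its strand setting and the annotation release were not given in the sources used here. Columns were placed by the names in the labels, and 0 columns belonged to other samples. No library was merged, since each pair within a group differed beyond sampling noise (a chi-square of 11.4 to 122 per degree of freedom).

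Counts were tested with edgeR 4.0.16 in R 4.3.3 (filterByExpr by group, TMM scaling, quasi-likelihood F test, Benjamini-Hochberg adjustment over all loci, threshold 0.05), in fits of the 7 profiling, the 8 distribution and the 11 whole-seedling libraries. The 8 libraries share 1 estimate of spread. Intervals are at 95%, from the SE and the t quantile of the fit. The SE was the absolute log2 change divided by the square root of F. DESeq2 1.42.0, DESeq2 size factors, no filter on low counts, a replicate block and leaving out each library were alternatives, as were a term for the replicate sets, the average effect over 11 libraries, library sizes without organelle and rRNA loci, and a fit of the 4 libraries compared. The scripts were tested on simulated data. Sequences and gene models came from RefSeq TAIR10.1, whose nuclear loci overlapped those of the files for 32834 of 32835 matched loci, read with Biopython 1.88 and compared with BLAST 2.17.0. The members and lists were chosen with earlier results of these data known. All 10 members are named, with EDS4, up to 4 passing loci per list and comparison by smallest adjusted p, and the 3 loci of nearest profile. Leaf and vascular markers are the exception, given as sums and not by name. Names of loci without a symbol in RefSeq are those in common use. Protein sequences were not used here.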

Additional observations from a re-analysis of the deposited data

How the results depend on the processing

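The genotype comparisons, the interaction and the comparison between experiments held 0 members past the threshold in every alternative run, and 0 calls changed sign. In nuclei against total RNA the number of members past the threshold ranged from 1 to 4 in the wild type and from 1 to 5 in eds4 when single libraries were left out. It was 1 (NUP96) without wild type total RNA replicate 1, without replicate 2, or without wild type nuclei replicate 1. In eds4 it was 1 (NUP96) without total RNA replicate 1 and 3 without total RNA replicate 2 or nuclei replicate 1. Why these libraries matter was not tested.

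With the replicate block 0 members passed in seedlings, 4 in nuclei against total RNA of the wild type (NUP85 was added) and 5 in eds4. Deviations of same-numbered seedling libraries correlated at 0.449, -0.0461 and 0.472 for numbers 1 to 3, and eds4 replicate 2 correlated best with wild type replicate 1, so the numbers were not taken to pair the samples. The block gave 414 loci in seedlings, against 297 without it, and 248 in nuclei, against 78.

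Counts over all loci depended more on the processing. In seedlings they ran from 42 without eds4 replicate 1 to 1047 with DESeq2. In total RNA they ran from 1 to 95, the highest without a filter on low counts, and in nuclei from 1 without wild type nuclei replicate 1 to 1167 without a filter. For nuclei against total RNA they ran from 3418 to 7651 in the wild type and from 3729 to 7397 in eds4, for the interaction from 0 to 226 and for the comparison between experiments from 2 to 212. The lowest depth was in a library of eds4 nuclei (12393243 counts), and the part of depth in these counts was not tested.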
